A study of Macaca mulatta with 18 samples.

Results

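Vastus lateralis, the large outer muscle of the thigh, was compared between 6 old and 6 young male rhesus monkeys (Macaca mulatta), which are 12 of the 18 animals of the series. Young animals were 6.00 ± 0.00 years of age and old animals 26.83 ± 0.22 years (mean ± SEM over 6 animals). A middle-aged group of 6 males of 16.48 ± 0.31 years entered the same statistical fit and serves here only to place the separating genes. The labels give no engineered allele and no treatment. They came from ongoing studies of the National Institute on Aging, lived in individual cages and ate standard monkey chow. Each biopsy gave 1 RNA sample and 1 array, a Sentrix Human HT-12 BeadChip, whose probes are made to human transcripts. Genes entered the comparison if a probe of theirs exceeded the negative controls (detection p under 0.05) on 6 or more of the 18 arrays, probes with several symbols being left out. Each gene was read from its brightest probe of this kind. In all, 8589 of the 20046 gene symbols on the chip could be compared.

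Skeletal muscle loses mass and strength with age, a decline called sarcopenia. Its fibers hold stacked sarcomeres that are joined at Z-discs, mitochondria that supply ATP, and a balance of protein synthesis against removal by the proteasome and by autophagy. A biopsy also contains capillaries, fat, connective tissue, nerve endings, immune cells and blood, and in such bulk RNA fewer cells of a type and less RNA per cell cannot be told apart. Levels below are log2 values relative to the mean of all probes on the same array, obtained from the Z score of the array, so that a difference of 1 is a doubling. Levels are compared between animals for the same probe and never between probes. A gene passed when its adjusted p from limma was under 0.05.

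The arrays of both ages overlapped in the share of probes detected, and 1 young animal stood apart in its tissue markers. Young arrays detected 26.84 to 30.54% of the probes and old arrays 26.03 to 28.67%, a difference that did not pass an exact permutation test (two-sided, p = 0.0801). Correlations between any 2 of the 12 arrays lay between 0.913 and 0.982. Of 15 markers of skeletal muscle fibers, 14 were tested and 13 were detected on all 12 arrays, among them ACTA1, CKM, MYH7, MYH2 and TTN. A list score is the mean, over the tested genes of a list, of the deviation of each gene from its mean over the 18 animals. In young replicate 6 the fibroblast score was 1.49, the endothelium score 0.90, the adipocyte score 0.92 and the muscle fiber score -0.83, each the extreme value among the 12 animals. Values without it are therefore given beside the results that it moved. Of 17 lymphocyte markers 13 were not tested, and of 10 neutrophil markers only FCGR3B was tested.

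**Figure D1:**
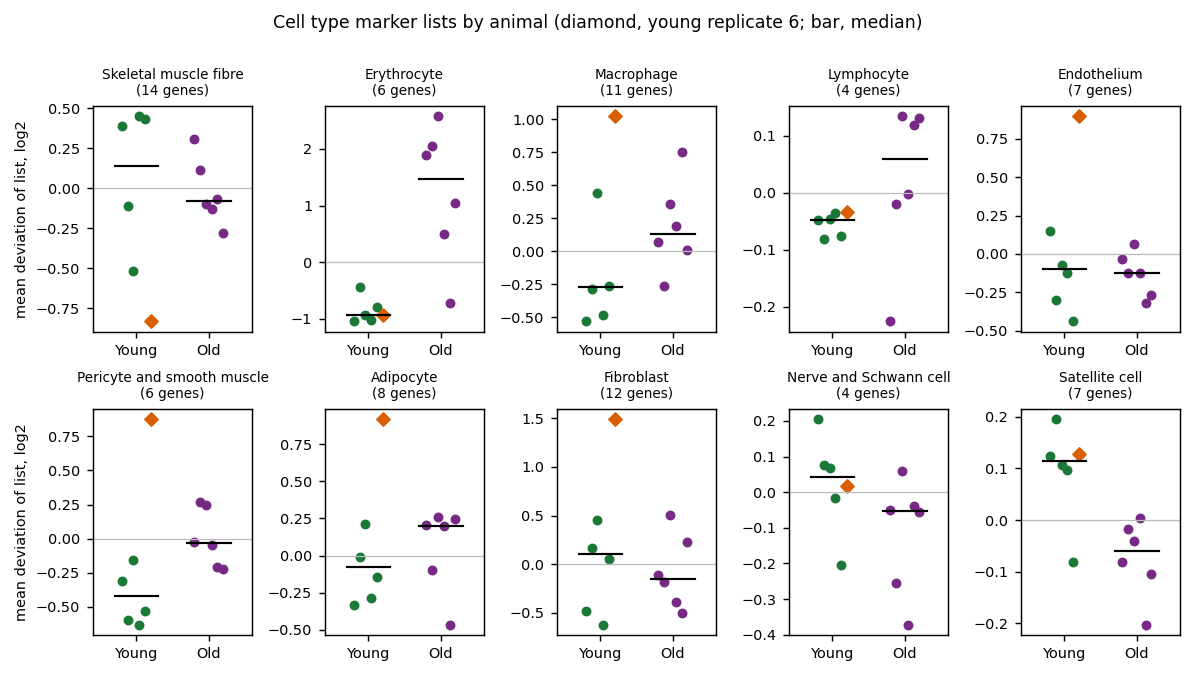
Score of each cell type marker list with at least 3 tested genes (vertical axis, mean deviation from the 18-animal mean, log2 units) in 6 young and 6 old animals, with young replicate 6 as a diamond and the median of each age as a bar. Young replicate 6 lies at 1.49 for fibroblast markers and -0.83 for muscle fiber markers, and 5 of 6 old animals lie above every young animal for erythrocyte markers.

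Differences between old and young muscle were small for most genes. The absolute log2 fold change was under 0.25 in 83.5% of the genes, and 29 genes exceeded 1, of which 22 were higher and 7 lower in old animals. The median log2 fold change was -0.0070 and the median standard error 0.123. By limma, 8 genes passed (0.0931% of all genes tested), of which 3 rose (0.0349%) and 5 fell (0.0582%). These counts depended on the processing. No gene passed with quantile normalization or with only the 12 arrays, while 44 rose and 24 fell with array weights. At an unadjusted p under 0.05, 453 genes had higher levels in old animals (5.27%) and 489 had lower levels (5.69%). No old animal overlapped with any young animal in 30 genes with higher levels (0.349%) and 44 genes with lower levels (0.512%) in old muscle, together 74 genes (0.862%). Of these genes, 20 of the 30 and 35 of the 44 were detected on all 12 arrays, and the gap between the ages was under 0.01 in 7 and 9 of them.

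The genes that rose encode the subunits of hemoglobin, the oxygen carrier of red blood cells. HBA1, an alpha-globin gene, lay at 0.31 to 1.25 in young (median 0.86) and 1.49 to 7.82 in old animals (median 5.31). Young and old levels did not overlap, but old animals ranged over more than 6 log2 units, with replicate 3 highest and replicate 5 close to the young animals. HBA2, the neighboring alpha-globin gene, was likewise free of overlap, with young levels of 1.85 to 2.66 (median 2.30) and old levels of 2.76 to 7.73 (median 6.57). HBB, the beta-globin gene, lay at 1.97 to 3.82 in young (median 3.01) and 3.39 to 7.93 in old animals (median 7.13), so that old replicate 5 lay among the young animals. The log2 fold changes were 4.16 (SE 0.77), 3.68 (SE 0.68) and 3.58 (SE 0.62), with an adjusted p of 0.0467 from limma for each. HBA1 and HBA2 are near-identical copies, and a probe of either may read both. Of 13 erythrocyte markers 6 were tested. ALAS2, the erythroid enzyme of heme synthesis, had a log2 fold change of 1.15 (SE 0.40, adjusted p = 0.26), AHSP, the alpha-globin chaperone, 0.18 and BPGM, a red cell glycolytic enzyme, -0.23. SLC4A1, GYPC, CA1, EPB42 and HBD were among those not tested. The erythrocyte score was -1.04 to -0.43 in young and -0.72 to 2.58 in old animals, and the part of blood content in the globin values was not tested.

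The 5 genes that fell belong to signaling and membrane transport as far as their roles are known. BRSK2, a kinase related to AMPK and known mainly from neurons, lay at 1.44 to 2.56 in young (median 1.70) and 0.19 to 1.14 in old animals (median 0.73). SLC7A5, the LAT1 transporter that brings leucine and other large neutral amino acids into cells, lay at 0.80 to 1.29 in young (median 1.13) and -0.30 to 0.56 in old animals (median 0.48). RET, the signaling receptor for ligands of the GDNF family, lay at 0.43 to 0.79 in young (median 0.66) and -0.17 to 0.21 in old animals (median -0.0081). In all 3 genes every old animal was below every young animal, and RET was detected on only 2 of the 6 old arrays. FLVCR2, a membrane transporter of the major facilitator superfamily, lay at 1.27 to 1.85 in young (median 1.48) and 0.71 to 1.08 in old animals (median 1.03). NKAPD1 lay at 1.02 to 1.34 in young (median 1.16) and 0.70 to 0.88 in old animals (median 0.76). These genes were also free of overlap, although NKAPD1 was not with quantile normalization or with neqc. The log2 fold changes were -1.11 (SE 0.21) for BRSK2, -0.74 (SE 0.14) for SLC7A5, -0.61 (SE 0.11) for RET, -0.52 (SE 0.09) for FLVCR2 and -0.38 (SE 0.07) for NKAPD1, all with an adjusted p of 0.0467 from limma. A further probe of RET had a log2 fold change of -0.03, and with the mean of its probes RET did not separate the ages. Each of these 8 genes kept its direction in all 12 fits that left out 1 animal, but passed in only 1 or 2 of them (adjusted p up to 0.123 from limma). The number of genes that passed was 28 higher and 26 lower without young replicate 6, 3 and 2 without old replicate 5, 1 and 2 without old replicate 3, 0 and 1 without young replicate 3, and 0 in each of the other 8 fits.

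NRAP was the separating gene with the highest log2 fold change in old muscle after the globin genes. NRAP, an anchoring protein of myofibril assembly and of the myotendinous junction, lay at 3.24 to 4.27 in young (median 4.01) and 4.32 to 5.41 in old animals (median 4.88), with a log2 fold change of 0.91 (SE 0.23, adjusted p = 0.114 from limma). The lowest young value, 3.24, was that of replicate 6, and the other 5 young animals lay at 3.98 to 4.27. ANKRD2, a stretch-responsive ankyrin repeat protein that binds titin, lay at -0.46 to -0.0497 in young (median -0.17) and -0.0361 to 2.03 in old animals (median 0.31), with a log2 fold change of 0.89 (SE 0.34, adjusted p = 0.329 from limma). It was detected in 1 of 6 young and in all 6 old animals, and the ages were separated by only 0.014. ANKRD2 reached the filter of 6 arrays only with the old animals counted. PACSIN3, a membrane-bending protein of muscle caveolae, lay at 0.81 to 1.502 in young (median 1.33) and 1.70 to 2.35 in old animals (median 1.90). DNAJB6, an HSP40 co-chaperone in which mutations cause a human limb-girdle muscular dystrophy, lay at 1.196 to 1.74 in young (median 1.51) and 1.81 to 2.42 in old animals (median 2.05). Between the ages the gap was 0.20 for PACSIN3 and 0.072 for DNAJB6. CDKN2B, the p15 inhibitor of the cyclin D kinases, lay at 0.75 to 1.27 in young (median 0.98) and 1.33 to 2.06 in old animals (median 1.47), and ZMAT3, a p53-induced RNA-binding protein, at 5.85 to 6.23 (median 6.04) and 6.26 to 6.84 (median 6.49). The log2 fold changes were 0.71 for PACSIN3, 0.62 for DNAJB6, 0.60 for CDKN2B and 0.49 for ZMAT3, with adjusted p from 0.0984 to 0.29 by limma. Further probes gave smaller values: 0.39 for NRAP, 0.09 for DNAJB6, 0.22 for CDKN2B, and 0.085 and 0.17 for ZMAT3. With the mean of the probes of a gene, NRAP, DNAJB6, CDKN2B and ZMAT3 did not separate the ages. DUSP26, a dual-specificity phosphatase (0.54), BRINP3 (0.52), AP1S2, a subunit of the clathrin adaptor AP-1 (0.51), and the class I histocompatibility probe of HLA-C (0.55) completed the 12 highest with HBA1 and HBA2. The class I genes form a multi-copy family in macaques, so the HLA-C signal cannot be assigned to 1 monkey gene.

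The separating genes with lower levels in old muscle were led by FNDC5, which encodes the membrane precursor of the exercise-related hormone irisin. FNDC5 lay at 3.44 to 5.04 in young (median 3.96) and 1.98 to 3.23 in old animals (median 2.76), with a log2 fold change of -1.31 (SE 0.28, adjusted p = 0.0867 from limma). Young replicate 4 was highest and old replicate 4 lowest, and the gap between the ages was 0.21. ZNF331, a zinc finger protein, lay at 0.70 to 1.69 in young (median 0.98) and 0.065 to 0.59 in old animals (median 0.41), with a log2 fold change of -0.70 (SE 0.14, adjusted p = 0.0598 from limma), but its other probe gave -0.02. PALD1, the phosphatase-domain protein paladin, lay at 1.18 to 1.67 in young (median 1.29) and 0.66 to 0.90 in old animals (median 0.85), with a log2 fold change of -0.56 (SE 0.11, adjusted p = 0.0565 from limma). For PALD1 the gap of 0.28 was more than 2 standard errors wide. COL6A6, a chain of the collagen VI microfibrils around fibers, was detected on all 6 young arrays and on no middle-aged or old array, so that it entered the comparison only through the young animals. It was at least 1.26-fold higher in young animals, a bound set by the dimmest probes detected on the old arrays (adjusted p = 0.187 from limma). Young replicate 6 carried much of this, at 1.30 against -0.042 to 0.43 in the other young animals, and without it the bound was 1.1-fold. TCEAL8 had a log2 fold change of -0.55, and 2 further probes gave -0.71 and -0.59. TGFB3, a ligand of the TGF-beta family (-0.49), STK26, a kinase of the STE20 family (-0.47), and FCGR3B, an IgG receptor known from human neutrophils (-0.52), were the remaining genes among the 12 lowest. The probe of the related gene FCGR3A had 0.19, and which monkey gene the FCGR3B probe reads was not tested. TGFB3 was detected on 1 of 6 old arrays. ZNF331 did not separate the ages with the mean of its probes, nor did FCGR3B with quantile normalization or neqc.

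**Figure D2:**
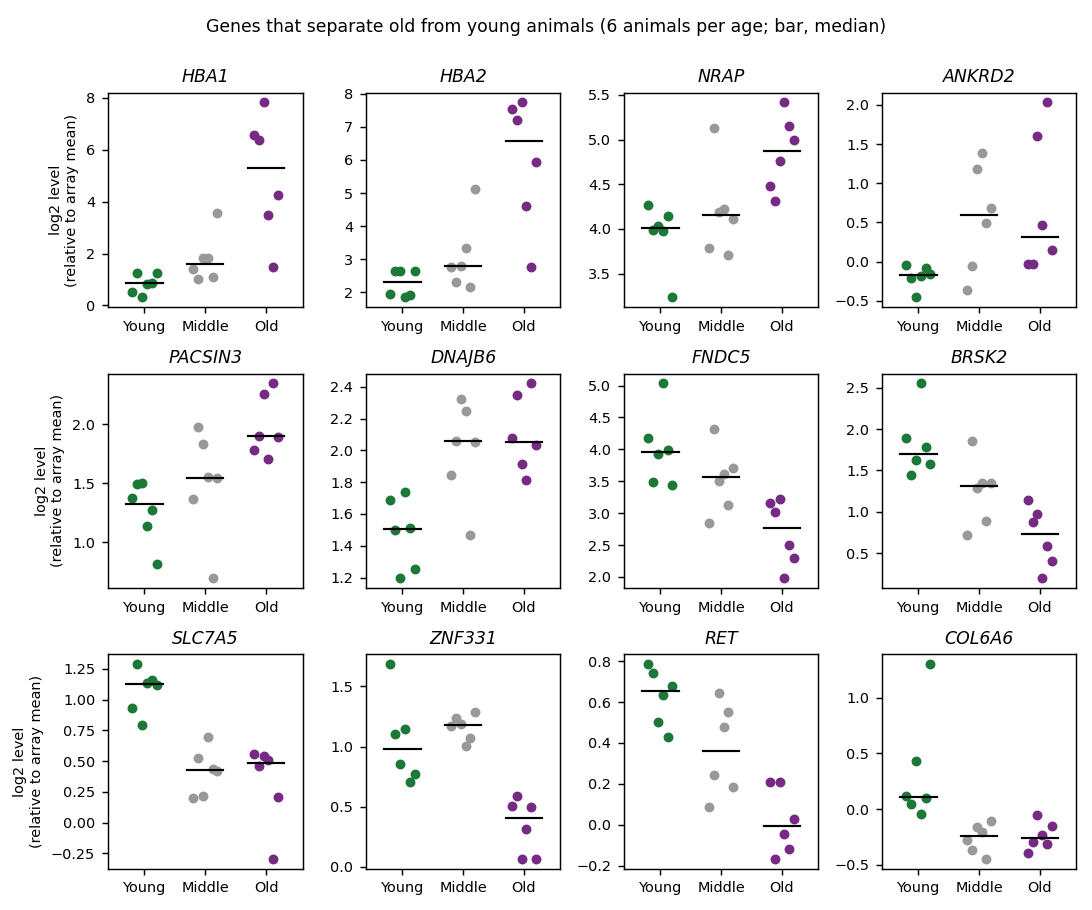
Levels of 12 separating genes, the 6 of highest and the 6 of lowest log2 fold change (vertical axes, log2 level relative to the array mean) in 6 young, 6 middle-aged and 6 old animals, with the median of each age as a bar. FNDC5 runs from 3.44 to 5.04 in young and from 1.98 to 3.23 in old animals, and ZNF331 of every middle-aged animal lies on the young side.

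The middle-aged animals did not share a common place among these 74 genes. Their median lay between the young and the old median in 23 of 30 genes with higher and 29 of 44 genes with lower levels in old muscle. All 6 middle-aged animals lay within or beyond the young range, on the side away from the old animals, in 1 and 14 genes, among them ZNF331, FLVCR2, FCGR3B and TGFB3. All 6 lay on the old side in only 1 gene of each direction, CDKN2B and COL6A6. For SLC7A5, 5 of 6 middle-aged animals lay at or below the highest old animal and the other lay between the ages. BRSK2 and FNDC5 had intermediate middle-aged medians of 1.32 and 3.56.

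Once the age means were removed, correlations between the separating genes had medians near 0. Such a median can hold pairs of both signs, so it does not give the number of pairs that varied together. Over 435 pairs of genes with higher levels the median correlation of the deviations across the 18 animals was -0.011, and over 946 pairs of genes with lower levels it was 0.033. A correlation above 0.85 occurred in 3 pairs, which share arrays and are given as a description. HBA1 and HBA2 correlated at r = 0.95 (Spearman's rho 0.83), although at 0.25 within young animals alone, and the gene TMEM183A and the related locus TMEM183BP at r = 0.93 (rho 0.89). Both are pairs of similar sequence. Whether the probes of FNDC5 and BRSK2 share sequence was not tested. These genes correlated at r = 0.98 (rho 0.98), and r was 0.96 without the 2 animals farthest from the median of FNDC5. Within young animals alone their r was 0.97 and within old animals 0.98. The animal with the highest level was young replicate 4 for both genes, at 5.04 and 2.56, and the lowest was old replicate 4, at 1.98 and 0.19.

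Functional classes were described with 38 lists that held 1166 different tested genes. Of these, 3 passed by limma (BRSK2, SLC7A5 and FLVCR2), beside 0.0931% of all genes, 9 separated the ages with higher levels, beside 0.349%, and 7 with lower levels, beside 0.512%. In all, 58 of the 74 separating genes belonged to no class. The class median was above 0 in 18 and below 0 in 20 classes, and 7 classes had a median more than 0.1 from 0. These were Z-disc and sarcomere scaffold genes, ubiquitin ligases of muscle atrophy, inflammation genes and glucose uptake genes on the side of old muscle, and slow fiber, cytosolic ribosome and TGF-beta family genes on the side of young muscle. The share of genes with an unadjusted p under 0.05 was 0 to 30.6% by class, beside 10.97% of all genes tested. Without young replicate 6 the median of 8 classes changed sign: mitochondrial biogenesis (0.027 to -0.021), proteasome (0.014 to -0.021), RNA splicing (-0.0037 to 0.028), excitation-contraction coupling (0.012 to -0.075), dystrophin complex (-0.0033 to 0.054), extracellular matrix (-0.083 to 0.061), TGF-beta family (-0.10 to 0.0025) and circadian clock genes (-0.015 to 0.017).

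**Figure D3:**
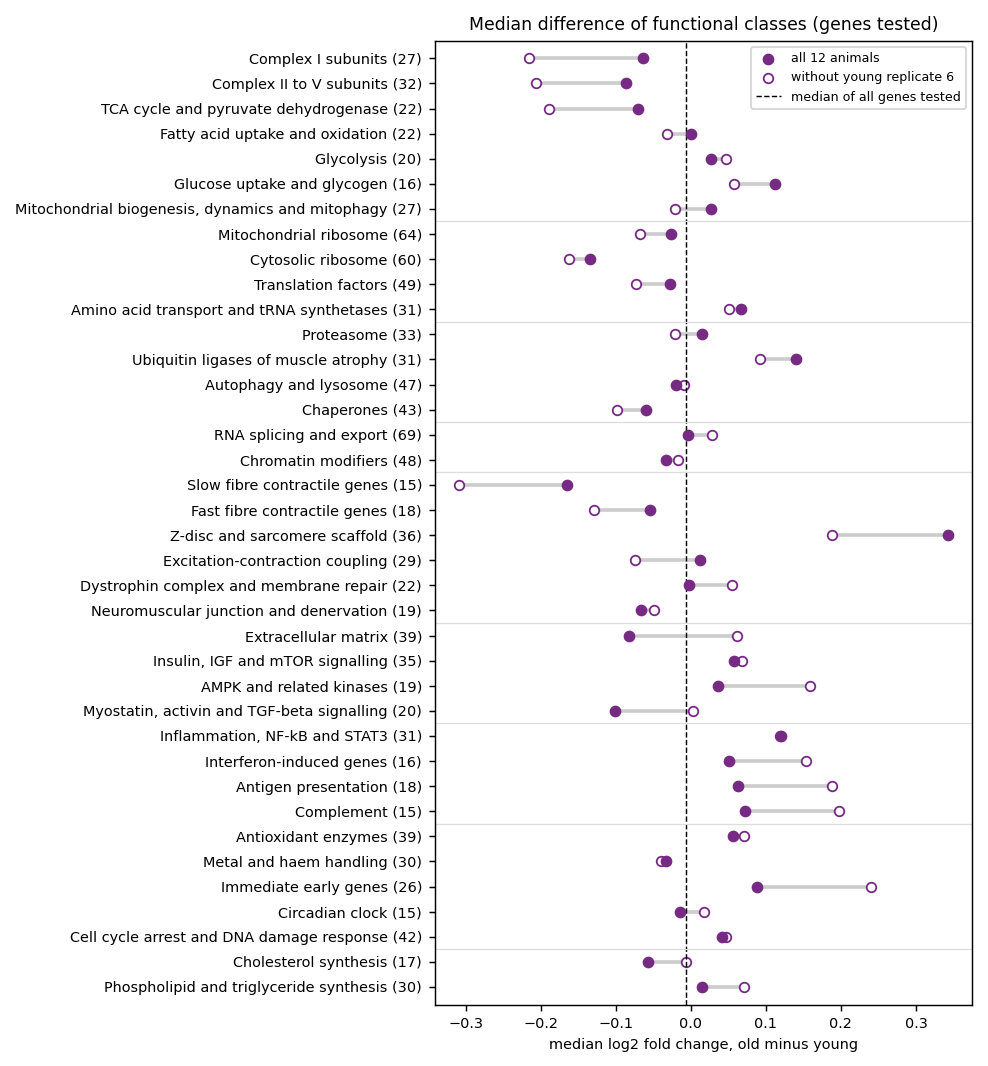
Median log2 fold change, old minus young (horizontal axis), of 38 functional classes, with the number of genes tested in parentheses, over all 12 animals (filled) and without young replicate 6 (open). The dashed line is the median of all genes tested, -0.0070, and Z-disc and sarcomere scaffold genes lie farthest to the right at 0.34, or 0.19 without that animal.

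Genes of the Z-disc and the sarcomere scaffold had the highest class median, 0.34, against -0.0070 over all genes. Of 36 tested genes 27 had positive log2 fold changes, and 11 had higher levels (30.6% beside 5.27% of all genes) and none had lower levels in old animals at an unadjusted p under 0.05, although none passed by limma. Besides NRAP and ANKRD2, LMOD3, a leiomodin that nucleates thin filaments, lay at 2.90 to 3.31 in young (median 3.05) and 3.29 to 3.64 in old animals (median 3.47), with a log2 fold change of 0.39 (SE 0.09, adjusted p = 0.0977 from limma). For LMOD3 the lowest old animal lay just inside the young range. DES, the intermediate filament desmin that links Z-discs, lay at 4.201 to 5.47 in young (median 5.29) and 4.89 to 6.02 in old animals (median 5.74). Young replicate 6 held the lowest DES value, and the other young animals lay at 5.15 to 5.47. The other genes of the 11, named after their values were seen, were the stress-responsive ankyrin repeat genes ANKRD1 (log2 fold change 1.13) and ANKRD23 (0.42), the M-band protein MYOM1 (0.59), the Z-disc proteins MYOT (0.55), LDB3 (0.49) and PDLIM3 (0.41), and NEXN (0.35), which binds actin. CAPZA2, which caps thin filaments at the Z-disc, had -0.23. The list score was -0.63 to 0.17 in young (median -0.096) and 0.012 to 0.27 in old animals (median 0.14), and the ages overlapped. Without young replicate 6 the class median was 0.19, again with 27 genes above 0. In that fit 8 genes had higher levels at an unadjusted p under 0.05, beside 512 of all 8589 genes.

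**Figure D4:**
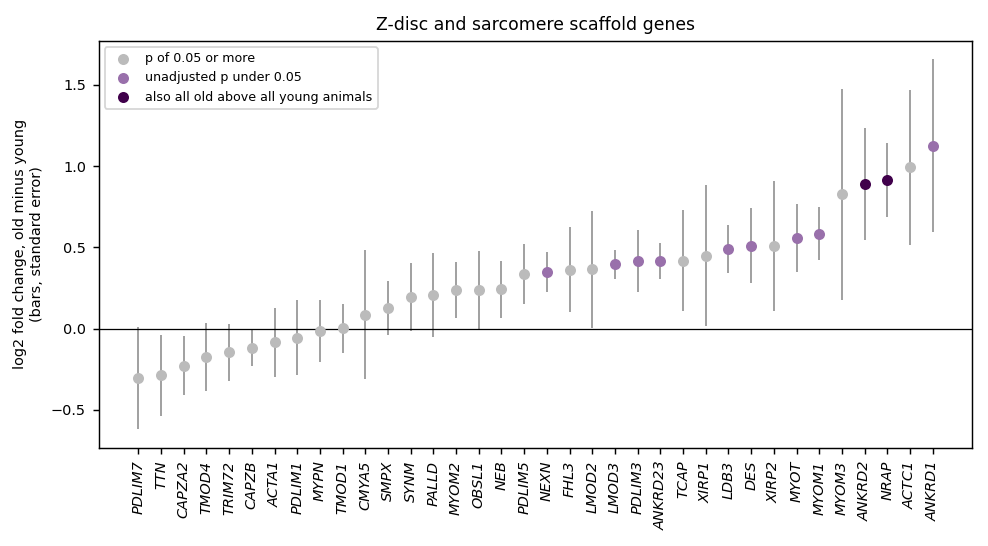
Log2 fold change, old minus young, with its standard error (vertical axis) for the 36 tested genes of the Z-disc and sarcomere scaffold, in ascending order. The 11 genes with an unadjusted p under 0.05 lie above 0, and NRAP at 0.91 and ANKRD2 at 0.89 are those in which all old animals exceeded all young animals.

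Other genes of contraction and of the fiber surface did not share this direction. Slow fiber genes had a median of -0.17 (5 of 15 above 0) and fast fiber genes one of -0.054 (5 of 18 above 0). No gene of either class reached an unadjusted p of 0.05. The slow list also held MYL12A and the fast list PARVA, which are not specific to a fiber type. ATP2A2, the calcium pump of slow fibers, lay at 3.65 to 6.53 in young (median 5.39) and 3.06 to 5.49 in old animals (median 4.90), and MYH1, the myosin of fast IIx fibers, at 5.54 to 6.45 (median 6.03) and 4.90 to 7.41 (median 6.46). In both genes the ranges of the ages overlapped widely. The slow fiber median ran from -0.36 without old replicate 5 to 0.043 without young replicate 4. Among excitation-contraction coupling genes (median 0.012), JPH1, which ties the T-tubule to the sarcoplasmic reticulum, had a log2 fold change of 0.62 (SE 0.28) and ORAI1, the store-operated calcium channel, -0.60 (SE 0.29), neither of which passed (adjusted p = 0.419 and 0.471 from limma). In the dystrophin complex (median -0.0033), DTNA, which encodes alpha-dystrobrevin, had -0.43 and CAPN3, the muscle calpain, 0.40. Neuromuscular junction and denervation genes had a median of -0.067. GADD45A, a stress gene induced in denervated muscle, lay at 2.49 to 4.01 in young (median 3.48) and 1.49 to 2.76 in old animals (median 2.49), with a log2 fold change of -0.98 (SE 0.30, adjusted p = 0.191 from limma). AGRN, the nerve-derived organizer of the synapse, had -0.23, and CDKN1A, a p53-induced gene also in this list, had 1.23 (SE 0.38, adjusted p = 0.191 from limma). Satellite cell markers, which label the stem cells of the fiber, were below 0 in all 7 tested genes (median -0.14), with CDH15, or M-cadherin, at -0.35 (adjusted p = 0.37 from limma).

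Genes of the respiratory chain and of the TCA cycle had medians slightly below 0, and the size of these depended on single animals. Complex I subunits had a median of -0.063 with 19 of 27 genes below 0, complex II to V subunits one of -0.086 with 21 of 32 below 0, and TCA cycle and pyruvate dehydrogenase genes one of -0.070 with 14 of 22 below 0. Without young replicate 6, whose complex I score was -0.67, the medians were -0.22, -0.21 and -0.19, and 24 of 27, 29 of 32 and 17 of 22 genes lay below 0. Without young replicate 4 the complex I median was -0.0080 and the complex II to V median -0.0076, and without old replicate 3 the TCA cycle median was -0.0069. At an unadjusted p under 0.05 and without young replicate 6, 10 complex I genes had lower levels, beside 613 of all 8589 genes. Over all 12 animals 2 complex I genes had lower levels in old muscle at that p, beside 5.69% of all genes. NDUFB8, a complex I subunit, lay at 4.92 to 5.98 in young (median 5.59) and 4.74 to 5.52 in old animals (median 5.15), with a log2 fold change of -0.37 (SE 0.17, adjusted p = 0.426 from limma). ATP5F1E, a subunit of the ATP synthase, had -0.24, and CS, the citrate synthase that opens the TCA cycle, had -0.32 (SE 0.16). The ranges of all 3 genes overlapped between the ages. NDUFC1, another complex I subunit, was detected in no young and in 3 old animals and was at least 1.46-fold higher in old animals (adjusted p = 0.411 from limma). It reached the filter of 6 arrays only with the old animals counted. PDK4, the kinase that shuts off pyruvate dehydrogenase in fasting, lay at -0.12 to 3.67 in young (median 0.068) and 1.21 to 4.47 in old animals (median 3.34). Young replicates 1 and 6 lay at 3.67 and 2.13, and the other 4 young animals at 0.11 or below. The log2 fold change of PDK4 was 2.10 (SE 0.67, adjusted p = 0.211 from limma).

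Fuel use genes had class medians of -0.00056 to 0.11, and their members differed in both directions. UCP3, an uncoupling protein of muscle mitochondria that follows fatty acid supply, lay at 3.20 to 5.39 in young (median 4.70) and 4.93 to 6.76 in old animals (median 5.53), with a log2 fold change of 1.03 (SE 0.31, adjusted p = 0.191 from limma). Young replicate 2 held the lowest UCP3 value, and the other young animals lay at 4.61 to 5.39. The median of fatty acid uptake and oxidation genes was -0.00056. GPI, the second enzyme of glycolysis, had a log2 fold change of 0.45 and FBP2, the muscle fructose bisphosphatase, 0.33, in a class with a median of 0.027. PPP1R3A, which directs protein phosphatase 1 to glycogen, had 0.43, SLC2A4, the insulin-responsive glucose transporter, 0.18, and EPM2A, the glycogen phosphatase laforin, -0.26. SLC2A4 was detected on 2 young, 0 middle-aged and 5 old arrays, and reached the filter of 6 arrays only with the old animals counted. The class of PPP1R3A, SLC2A4 and EPM2A had a median of 0.11 (11 of 16 above 0). In it, 1 gene had higher and 3 had lower levels at an unadjusted p under 0.05, beside 5.27% and 5.69% of all genes. Without young replicate 6, whose score was -0.39, the class median was 0.058. In that fit 0 genes had higher and 3 lower levels at that p, beside 512 and 613 of all 8589 genes. None of GPI, FBP2, PPP1R3A, SLC2A4 and EPM2A passed (adjusted p from 0.228 to 0.498 by limma). Among mitochondrial biogenesis genes (median 0.027), the related proteins TFB2M, a transcription factor of mitochondrial DNA, and TFB1M, which methylates mitochondrial ribosomal RNA, had opposite signs, at 0.40 and -0.41. TFB2M lay at -0.43 to 0.16 in young (median -0.25) and 0.10 to 0.36 in old animals (median 0.19), and TFB1M at 1.74 to 2.45 (median 2.13) and 1.42 to 1.93 (median 1.77), with adjusted p of 0.114 and 0.19 from limma.

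Of the protein synthesis lists, cytosolic ribosomal proteins had the lowest median and amino acid transport and tRNA synthetase genes the highest. Cytosolic ribosomal protein genes had a median of -0.13, with 47 of 60 below 0, and 8 had lower levels (13.3% beside 5.69% of all genes) and none had higher levels at an unadjusted p under 0.05. RPS4X, a protein of the small subunit, lay at 5.0 to 5.203 in young (median 5.11) and 4.61 to 4.97 in old animals (median 4.78), with a log2 fold change of -0.34 (SE 0.10, adjusted p = 0.191 from limma). RPL17, a protein of the large subunit, had -0.24, and RPL24 had 0.18. The ages did not overlap in RPS4X, and in RPL17 they overlapped slightly. A further probe of RPS4X gave -0.15, and with the mean of its probes RPS4X did not separate the ages. Many ribosomal protein genes have processed pseudogenes, and a probe may read more than 1 of them. Mitochondrial ribosomal genes had a median of -0.027, with MRPS28 at -0.58 (SE 0.18, adjusted p = 0.191), MRPL32 at -0.35 (adjusted p = 0.155) and MRPL54 at 0.65 (adjusted p = 0.415, all from limma). Among translation factors (median -0.029), EEF1B2, the exchange factor of elongation factor 1, had -0.35 and EIF1, which selects the start codon, 0.74. EIF1 lay at 3.25 to 4.89 in young (median 4.05) and 4.43 to 5.80 in old animals (median 4.57). Apart from SLC7A5, the amino acid transport and tRNA synthetase list (median 0.067) held SLC7A2, a transporter of cationic amino acids, at 0.80 and WARS1, the tryptophanyl-tRNA synthetase, at 0.35, with adjusted p of 0.404 and 0.384 from limma.

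Genes of protein removal divided between the ubiquitin ligases and the rest. Ubiquitin ligases of muscle atrophy had a median of 0.14, with 23 of 31 above 0, and 5 had higher and none had lower levels at an unadjusted p under 0.05 (16.1% beside 5.27% of all genes with higher levels). KLHL21, an adaptor of the cullin-3 ligase, lay at 1.13 to 1.70 in young (median 1.38) and 1.22 to 2.14 in old animals (median 1.99), with a log2 fold change of 0.47 (SE 0.14, adjusted p = 0.191 from limma). WWP1, a HECT-type ligase, had 0.45 and FBXO32, the atrogin-1 subunit named after its value was seen, 0.64. Without young replicate 6 the class median was 0.092. In that fit 4 genes had higher and 2 lower levels at that p, beside 512 and 613 of all 8589 genes. The proteasome median was 0.014, and PSMD3, a lid subunit, separated the ages by 0.0081 with a log2 fold change of 0.22. Autophagy and lysosome genes had a median of -0.020. SQSTM1, the autophagy receptor p62, lay at 3.14 to 5.25 in young (median 4.70) and 4.91 to 5.66 in old animals (median 5.33), with a log2 fold change of 0.71 (SE 0.29, adjusted p = 0.365 from limma), while the autophagosome protein GABARAP had -0.27 and ATP6V1H, a subunit of the proton pump, -0.35. Chaperones had a median of -0.061, and DNAJA1, an HSP40 co-chaperone, lay at 3.34 to 4.30 in young (median 3.55) and 2.34 to 3.68 in old animals (median 2.79). Its log2 fold change of -0.75 (SE 0.22, adjusted p = 0.178 from limma) had the opposite sign to that of DNAJB6.

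Signaling and matrix genes had medians close to 0 or dependent on young replicate 6. AKT1, the kinase that relays insulin and IGF-1 signals, lay at 2.85 to 3.18 in young (median 2.91) and 2.21 to 2.97 in old animals (median 2.45), with a log2 fold change of -0.47 (SE 0.11, adjusted p = 0.0977 from limma). Old replicate 5 lay at 2.97, and the other old animals at 2.48 or below, under all young animals. MTOR, the kinase of the growth-promoting complexes, lay at -0.20 to 0.57 in young (median 0.31) and -0.0197 to 1.43 in old animals (median 0.78), a log2 fold change of 0.51 that did not pass (SE 0.22, adjusted p = 0.404 from limma). The insulin, IGF and mTOR list had a median of 0.057, and 0.067 without young replicate 6. The AMPK list had a median of 0.035, and 0.16 without that animal. In the AMPK list, ACACB, the acetyl-CoA carboxylase that controls fatty acid entry into mitochondria, had 0.42 and MARK2 0.27, against -1.11 in BRSK2. Extracellular matrix genes had a median of -0.083 with 17 of 39 above 0, and of 0.061 with 26 above 0 without young replicate 6. COL1A1 and COL1A2, the chains of type I collagen, had log2 fold changes of -0.94 (SE 0.42) and -1.17 (SE 0.54). They are also fibroblast markers, whose median was -0.13, and 0.052 without young replicate 6. At an unadjusted p under 0.05, 2 fibroblast markers had lower levels, beside 5.69% of all genes. Without young replicate 6 the number was 0, beside 613 of all 8589 genes. COL15A1, a basement membrane collagen, had -0.51. It was detected on 6 young, 0 middle-aged and 4 old arrays, and reached the filter of 6 arrays only with the young animals counted. COL6A2, a chain of collagen VI, had 0.48 (SE 0.29). COL1A2 lay at 2.97 to 5.98 in young (median 4.37) and 1.25 to 4.62 in old animals (median 3.24). None of these collagen genes passed (adjusted p from 0.304 to 0.584 by limma). TGF-beta family genes had a median of -0.10, and 0.0025 without that animal.

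All 4 immune lists had medians above 0, and single animals moved each of them. Interferon-induced, antigen presentation and complement genes had medians of 0.050, 0.063 and 0.072 over all animals, 0.15, 0.19 and 0.20 without young replicate 6, and -0.0053, -0.046 and -0.0082 without old replicate 5. The inflammation list had a median of 0.12, with 20 of 31 genes above 0, and 6 genes higher and 1 lower at an unadjusted p under 0.05 (beside 5.27% and 5.69% of all genes). Its median was 0.12 without young replicate 6, with 22 genes above 0. In that fit 8 genes were higher and 1 lower at that p, beside 512 and 613 of all 8589 genes. Without young replicate 4 the median was 0.052. PLA2G2A, a secreted phospholipase of the acute phase, lay at -0.39 to 0.38 in young (median 0.21) and 0.084 to 3.80 in old animals (median 1.14), with a log2 fold change of 1.64 (SE 0.57, adjusted p = 0.272 from limma). STAT3, the transcription factor downstream of IL-6, lay at 0.88 to 1.19 in young (median 1.01) and 1.02 to 1.75 in old animals (median 1.54). SOCS2, a suppressor of cytokine and growth hormone signaling, had a log2 fold change of -0.46 and was detected in all 6 young but only 1 old animal. CISH, another suppressor of this family, was detected in 5 young and no old animals and was at least 1.93-fold higher in young animals (adjusted p = 0.114 from limma). SOCS2 and CISH reached the filter of 6 arrays only with the young animals counted. CFB, a protease of the alternative complement pathway, lay at -0.32 to 0.64 in young (median 0.027) and 0.38 to 2.42 in old animals (median 0.89), with a log2 fold change of 1.01 (SE 0.39, adjusted p = 0.346 from limma). ERAP2, which trims peptides for class I molecules, had 0.36 and the interferon-induced OAS1 -0.26. Macrophage markers had a median of 0.17, with 10 of 11 above 0, which was 0.37 without young replicate 6 and 0.028 without young replicate 1. Their score was -0.53 to 1.02 in young and -0.26 to 0.75 in old animals. Of these markers CD163 had 0.28 and FCGR3A 0.19, and their part in the inflammation values was not tested.

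Genes of stress and cell cycle arrest included large differences in both directions. CDKN1A, the p21 inhibitor induced by p53, lay at 0.87 to 2.06 in young (median 1.17) and 1.61 to 3.79 in old animals (median 2.66), with a log2 fold change of 1.23 (SE 0.38, adjusted p = 0.191 from limma). CDKN1B, the p27 inhibitor, lay at 0.21 to 0.96 in young (median 0.37) and 0.66 to 1.81 in old animals (median 1.18), with 0.72 (SE 0.18, adjusted p = 0.114 from limma). With CDKN2B, these 3 cyclin-dependent kinase inhibitors had higher medians in old animals, and only CDKN2B was free of overlap. GADD45A, given above among denervation genes and also in this list, had -0.98, and BBC3, the p53-induced death gene PUMA, had -0.33. The list as a whole had a median of 0.041, with 5 of 42 genes higher and 4 lower at an unadjusted p under 0.05, beside 5.27% and 5.69% of all genes. MT2A, a metallothionein that binds zinc and copper, lay at 0.71 to 2.11 in young (median 1.51) and 1.55 to 5.09 in old animals (median 2.17), with a log2 fold change of 1.30 (SE 0.48, adjusted p = 0.29 from limma). Of 30 metal and heme genes, 4 had higher and 5 lower levels at an unadjusted p under 0.05, beside 5.27% and 5.69% of all genes. CAT, the peroxisomal catalase, lay at -0.14 to 0.32 in young (median 0.092) and 0.19 to 1.01 in old animals (median 0.67), and GPX1, the main glutathione peroxidase, at 2.80 to 4.05 (median 3.64) and 3.65 to 4.66 (median 4.22). Their log2 fold changes were 0.53 (SE 0.14) and 0.62 (SE 0.20), with adjusted p of 0.12 and 0.22 from limma, in an antioxidant list with a median of 0.056. Immediate early genes had a median of 0.088, which ran from -0.0069 without old replicate 1 to 0.24 without young replicate 6.

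Lists of gene expression and lipid synthesis had medians near 0, from -0.057 for cholesterol synthesis to 0.015 for phospholipid and triglyceride synthesis. PRPF19, a ubiquitin ligase of the spliceosome, lay at 0.18 to 0.44 in young (median 0.28) and 0.50 to 0.92 in old animals (median 0.77), free of overlap, with a log2 fold change of 0.45 (SE 0.11, adjusted p = 0.0977 from limma). THOC2, of the mRNA export complex THO, had -0.36, HDAC2, a histone deacetylase, -0.23 and CBX7, a Polycomb protein, 0.34. EZH2, the histone methyltransferase of Polycomb, had -0.31 and was detected in 5 young, 2 middle-aged and 1 old animal. EZH2 reached the filter of 6 arrays only with the young animals counted. HSD17B7, an enzyme of cholesterol synthesis, lay at 4.26 to 4.94 in young (median 4.61) and 4.87 to 5.196 in old animals (median 4.98), with a log2 fold change of 0.42 (SE 0.11, adjusted p = 0.115 from limma), while HMGCS1, which makes HMG-CoA, had -0.36. LPIN1, the phosphatidate phosphatase of muscle, had 0.64 and MGLL, the monoglyceride lipase, -0.43 (adjusted p = 0.272 and 0.345 from limma). LEP, the adipocyte hormone leptin, had 0.39 and ADIPOQ, adiponectin, 0.16, the latter detected on 1 young and 4 old arrays. Of 8 tested adipocyte markers 5 lay above 0 and 3 below, down to -0.36. Their median was 0.057, with -0.057 without young replicate 1 and 0.14 without young replicate 6. The adipocyte score was -0.33 to 0.92 in young and -0.47 to 0.26 in old animals.

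The spread between animals was close in both ages over all animals and larger in old animals without young replicate 6. Over all 12 animals the SD was larger in old muscle for 52.6% of the genes, with a median ratio of 1.04, and without young replicate 6 for 65.3%, with a median ratio of 1.24. Without old replicate 5 the share was 48.7%. By class, the median ratio without that animal was 2.09 for glycolysis, 2.02 for antigen presentation and 1.90 for proteasome genes, and 0.75 for fatty acid genes. Inflammation genes had a ratio of 1.72 with and 1.71 without it, and complex I subunits 0.51 with and 0.95 without it. The genes with the most unequal spread were ALAS2, with an SD ratio of 10.7, MAPKAPK5, a kinase of the p38 pathway (9.38), NDUFC1 (9.26) and RPL7L1 (8.74) on the side of old animals. On the side of young animals they were SUMF1, which activates sulfatases (0.055), MCU, the pore of the mitochondrial calcium uniporter (0.085), CISH (0.089) and PRR14L (0.092). For PRR14L the ratio was 0.33 without young replicate 6. MCU lay at 0.88 to 2.02 in young (median 1.34) and 1.44 to 1.53 in old animals (median 1.51), so that its old animals were nearly alike. ALAS2 lay at -0.15 to 0.20 in young (median -0.067) and 0.083 to 3.50 in old animals (median 0.64). These genes were chosen by their ratio, which is given as a description.

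**Figure D5:**
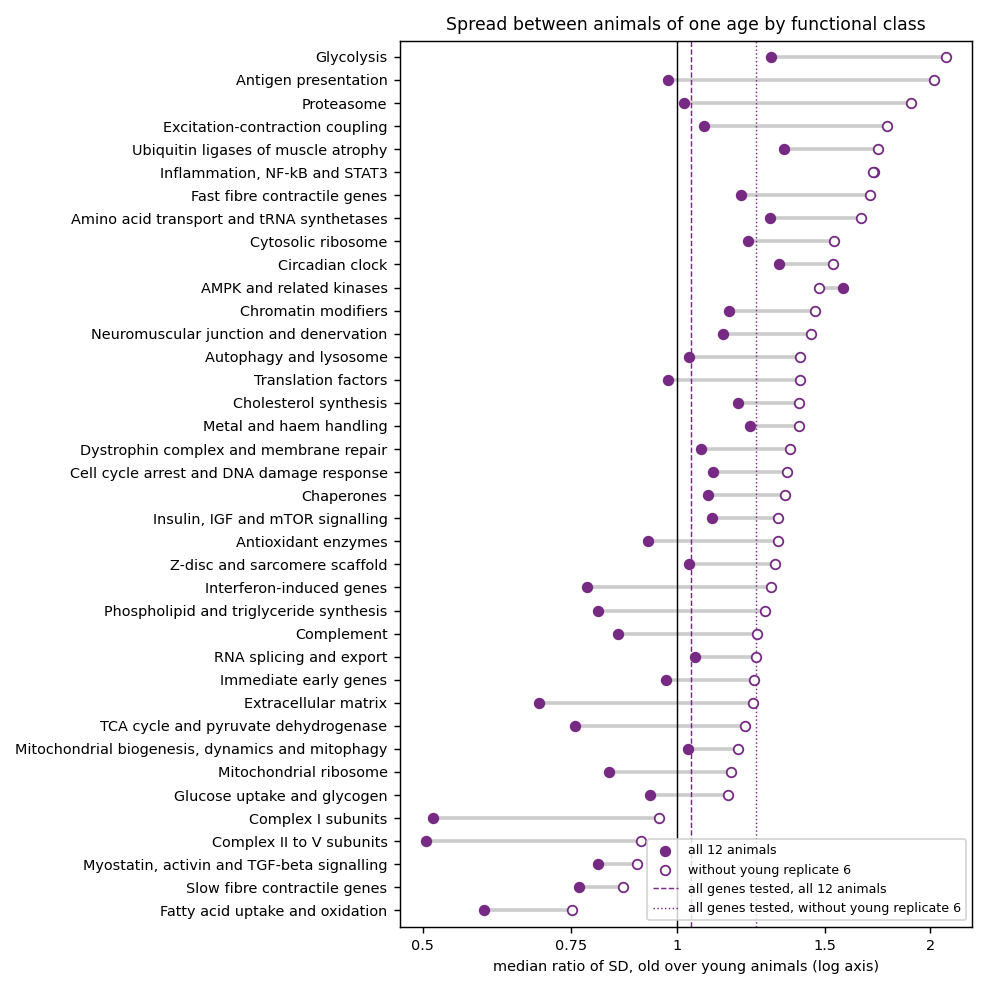
Median ratio of the SD between 6 old animals to that between young animals (horizontal axis, logarithmic) for 38 functional classes, over all 12 animals (filled) and without young replicate 6 (open). Dashed and dotted lines are the medians of all genes tested, 1.04 and 1.24, and glycolysis lies highest at 2.09 without that animal.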

How the data were processed

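RNA was isolated with Trizol from biopsies, amplified and labeled with biotin-UTP, and hybridized to 1 array per animal. The authors deposited linear probe intensity values read with GenomeStudio (2011.1), not normalized, and a detection p-value for each probe. Whether a background was subtracted is not given in the sources used here, and 0 intensities were at or below 0. The deposited Z score values were made by the authors from natural log intensities, centered and scaled within each array, and recomputed scores differed from them by at most 0.0184. To read differences as log2 fold changes, recomputed scores were scaled by 1.19, which is the SD of an array's log2 values averaged over the 18 arrays. Of 47323 probes, 30113 carried 1 symbol, 8 several and 17202 none. Precision is limited by the number of arrays.

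A single model of the 3 ages was fitted with limma (3.58.1) in R (4.3.3), and p-values of the old minus young contrast were adjusted over 8589 genes by Benjamini-Hochberg. Separation means that the 6 old and 6 young levels did not overlap. A middle-aged animal was placed on the young or the old side of a gene by the young and old values nearest the gap. Tables and figures used Python 3.11.15, pandas 2.3.3, numpy 2.4.6 and matplotlib 3.10.9. On simulated data with 200 changed genes among 8589, the fit for old against young made 7 false calls. It found 47.8% of the genes that were set 0.5 log2 units apart, 86.6% at 1 unit and 100% at 2 units. These rates hold for that simulation only. The share of differences that the fit finds on the arrays themselves, where 8 genes passed, was not tested. Genes were named by rule: all that passed, the 12 highest and 12 lowest separating genes by log2 fold change, up to 2 genes per class in the direction of its median and 1 in the other by smallest p, 2 per marker list, and the 4 highest and 4 lowest SD ratios. The comparison, the gene lists and the rule were chosen with earlier results of these data known. A bound such as "at least 1.26-fold" sets the mean of the brighter age against the dimmest detected probe of each array of the other age. Alternatives were quantile normalization, neqc, the deposited Z scores, other detection filters, the mean of the probes of a gene, only the 12 arrays, weighted arrays, a block on replicate number, thresholds of the study, and fits without 1 animal or without young replicate 6 and 2 old animals. P-values from limma set the difference between the ages against the spread between arrays within an age. With 1 array per animal, this spread holds animal and technical variation together.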

Additional observations from a re-analysis of the deposited data

Results flagged for a closer look

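An animal was listed where its value stood apart from the other 5 of its age by Dixon's criterion at the 95% level, which chance meets in about 1 in 20 groups. Of 412 groups tested (157 named genes and 49 lists, young and old), 40 met it, and 18 of these concerned young replicate 6.

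Young replicate 6 was high in COL6A6 (1.30), TCEAL8 (2.09), PARVA (1.199), COL6A2 (1.34), IFI44 (1.57), TAGLN (4.40) and PRR14L (1.72), and low in NRAP (3.24), PDHB (3.55), ASB10 (4.24), CAPN3 (2.93) and DES (4.201). Its list scores were high for interferon-induced genes (0.43), antigen presentation (0.69), AMPK and related kinases (0.27) and pericyte and smooth muscle markers (0.88), and low for the proteasome (-0.27) and excitation-contraction coupling (-0.34). For interferon-induced genes the other 5 young animals lay at -0.17 to -0.083, and for pericyte and smooth muscle markers at -0.63 to -0.16.

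In other young animals, replicate 1 was high in COX6C (1.68), replicate 2 low in UCP3 (3.20) and high in the neuromuscular junction list (0.44), and replicate 5 low in satellite cell markers (-0.082).

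Old replicate 5 was high in HLA-C (1.16), AP1S2 (4.004) and AKT1 (2.97) and low in GADD45A (1.49). Its scores were high for antigen presentation (0.76), interferon-induced genes (0.29) and mitochondrial biogenesis (0.21) and low for fast fiber genes (-0.83). Old replicate 3 was low in FLVCR2 (0.71) and PLN (-0.38), and old replicate 2 was high in FCGR3B (1.23), which also set its neutrophil score (-0.15), and in MYH11 (3.17). Old replicate 4 was low in PFKFB4 (-1.14) and high in the fatty acid score (0.20), old replicate 6 was high in CAPN3 (4.38) and low in PRR14L (0.97), and old replicate 1 had the highest score of immediate early genes (0.59).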

How the results depend on the processing

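The counts of genes that passed depended on the processing. The 3 genes that rose became 0 with quantile normalization, with no filter on dim probes (20046 genes), with only the 12 arrays and with the replicate number as a block, 6 in 15 animals (old replicates 1 and 2 and young replicate 6 left out), 44 with array weights and 226 with the study's thresholds in place of an adjusted p. The 5 genes that fell became 0 with quantile normalization, with no filter, with only the 12 arrays and with the block, 1 with neqc, 2 when detection on all 12 arrays was required, 19 in the 15 animals, 24 with array weights and 255 with the study's thresholds. Leaving out each animal gave 0 to 28 that rose and 0 to 26 that fell. Replicate numbers do not pair the animals: the correlation of deviations between animals of the same number was 0.013 to 0.091, and 1 of 6 young animals correlated best with the old animal of its number.

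Separating genes numbered 37 to 93 (higher) and 52 to 110 (lower) when 1 animal was left out, which leaves fewer animals to separate, 254 and 304 in the 15 animals, and 53 higher without the filter. With quantile normalization 21 of the 30 and 30 of the 44 genes remained separate. The share of genes with a larger SD in old animals was 48.7 to 65.3% when 1 animal was left out and 61.2% in the 15 animals. Small differences reversed in 4 genes. CD74 was 0.0068 with the mean of its probes. PARVA was 0.057 in the 15 animals and -0.27 to 0.045 when 1 animal was left out, above 0 without young replicate 6. RPL7L1 was -0.0029 in the 15 animals and -0.033 to 0.11 when 1 animal was left out, with -0.033 and -0.017 without old replicates 1 and 3. MAPKAPK5 was -0.0076 with array weights and -0.057 to 0.094 when 1 animal was left out, below 0 without old replicate 5. The causes were not tested. With detection on all 12 arrays required, no lymphocyte marker was left to give a value. Signal over background limits the dim genes, since 10 of the 30 and 9 of the 44 separating genes were not detected on all 12 arrays.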

Other observations

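Without young replicate 6, 28 genes had higher and 26 lower levels in old muscle by limma (adjusted p under 0.05), and all 8 genes that passed over 12 animals were among them. These genes were named after their values were seen. Young replicate 6 itself reached the old range in 17 of the 28 and 12 of the 26. Among the lower genes were the mitochondrial ribosomal genes MRPS28 (-0.71, SE 0.16) and MRPL37 (-0.41, SE 0.09), TACO1, a translational activator of cytochrome c oxidase (-0.62, SE 0.14), TIMM8A, an intermembrane space chaperone (-0.67, SE 0.15), and BOLA3, of iron-sulfur cluster assembly (-0.90, SE 0.20). NDUFAF7, a complex I assembly factor (0.59, SE 0.12), and COA8, a factor for cytochrome c oxidase (0.44, SE 0.09), had the opposite sign. The probe of 28S ribosomal RNA, RNA28SN5, lay at 7.44 to 7.74 in the other 5 young animals, at 6.33 in young replicate 6 and at 6.59 to 7.20 in old animals (-0.71, SE 0.14). FNDC5 also passed in this fit (-1.43, SE 0.29, adjusted p = 0.0358 from limma). The number of animals in this comparison is 5 young and 6 old.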
